A study of Mus musculus with 32 samples.

Results

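The 4 samples collected 4 h after the addition of doxycycline (Dox) were compared with the 4 samples collected 2 h after it, across all genes, which takes in 8 of the 32 samples of an RNA-seq time course with 8 time points. All samples came from KH2 mouse embryonic stem (mES) cells of the C57BL/6 strain that carry a TRE:GATA6-DSREd2 transgene, so that Dox turns on GATA6 together with the red fluorescent protein DsRed2. At 2 h and at 4 h the cells were in the same medium, with serum, LIF and Dox, and they differed in the time since Dox was added. The uninduced cells at 0 h had been kept in 2i medium, without serum and with the inhibitors PD0325901 and CHIR9902, which the serum medium lacked. The switch to serum, the removal of both inhibitors and the addition of Dox thus happened together. Their effects on any gene cannot be told apart. As a model the cells have limits of their own: KH2 is a single line with 1 engineered copy of the transgene, and GATA6 was driven by Dox and not by its own promoter. The labels do not say whether replicates were separate cultures, so p-values measure only the spread between samples of this time course. In bulk RNA a change in the number of cells of a type and a change in RNA per cell cannot be told apart.

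GATA6 is a zinc finger transcription factor (TF) that is needed for the primitive endoderm (PrE), the layer of the blastocyst that later lines the yolk sac. In the inner cell mass it is opposed by NANOG, which marks the future epiblast (Epi), and FGF signalling through ERK tips cells towards PrE. PrE cells switch on the TFs SOX17, GATA4, SOX7 and FOXA2, the receptor PDGFRA, and the basement membrane proteins laminin and collagen IV. Cells moved into serum also go through a brief wave of immediate early genes, which encode TFs such as FOS and EGR1 and are shut off again by the phosphatases and co-repressors that ERK itself induces.

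Depth was between 6786994 and 10790211 reads on genes per sample at 2 h and between 3190108 and 9640546 at 4 h, where replicate 2 was the shallowest. Levels are given as normalized counts, the reads on a gene divided by the size factor of its sample. In both groups replicates 1 and 2 resembled each other, as did replicates 3 and 4. A chi-square statistic of read counts over genes, divided by its degrees of freedom, was 1.21 to 1.58 within these sets and 8.45 to 17.4 between them. Many genes below differed in level between the sets, so a call was also sought with the replicates averaged within each set, which leaves 2 values per time point. Both fits took the spread from all 8 time points, so a lost call need not reflect disagreement at 2 h or 4 h. The 8 ES cell markers summed to normalized counts of 23893 to 29862 at 2 h and 23012 to 28218 at 4 h. Mitochondrial genes took 0.0760% to 0.0904% of reads at 2 h and 0.0721% to 0.0769% at 4 h, and the part of this in any result was not tested.

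The transgene was on in all 8 samples. Its row held no read at 0 h and normalized counts of 540.3, 510.3, 682 and 739.5 in replicates 1 to 4 at 2 h and 413, 446, 538 and 645 at 4 h. The groups overlapped because replicates 3 and 4 stood above replicates 1 and 2 at both times. Within each of these sets every 4 h value lay below every 2 h value. In the fit of all 32 samples a change of -0.28 on the log2 scale (limma, SE 0.31, adjusted p = 0.596) did not pass the test. Endogenous *Gata6* behaved differently, with 11.4, 14.3, 16.4 and 17.2 at 2 h and 149, 191, 172 and 172 at 4 h. Every 4 h sample was far above every 2 h sample, and the mean went from 14.9 ± 2.59 to 171 ± 17.2 (SD, n = 4), a log2 fold change of 3.45 (SE 0.15, adjusted p = 2.42e-16). The endogenous gene supplied 2.36% ± 0.277 of the normalized counts on both *Gata6* rows at 2 h and 25.5% ± 3.77 at 4 h (SD, n = 4). The difference of 23.1 percentage points had an exact two-sided permutation p of 0.0286, the smallest that 4 against 4 samples can give. The transgene holds only the coding sequence of the gene. The study's methods describe an estimate of transgene expression from reads on the coding and 3′ untranslated parts of the last exon, but do not say whether the deposited rows were made that way, so the share describes the deposited rows and not molecules.

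Of 15227 genes tested, 85 were at least 4-fold higher at 4 h with an adjusted p below 0.1 (0.558%) and 35 were at least 4-fold lower (0.230%). At any size of change 2064 genes were higher (13.6%) and 1657 were lower (10.9%), and the median log2 fold change over all genes was -0.01. All 4 samples at 4 h lay above all 4 samples at 2 h for 1648 genes (10.8%) and below them for 1571 (10.3%). The higher genes were 55.5% of those that passed, and 69.7% (2744 against 1195) in a fit of recovered reads with the total reads as library size, chosen after seeing the data. Averaging replicates within sets left 523 genes higher (3.43%) and 285 lower (1.87%). Fold changes are on the log2(normalized count + 1) scale, which understates the change of genes with few reads, and 22 of the 85 higher genes had at most 3 reads in every 2 h sample. The higher genes encoded 11 cell surface receptors, 10 TFs or cofactors, 6 ligands and 5 matrix or adhesion proteins, by roles assigned after the calls were known. Among the 35 lower genes were 12 TFs or cofactors, 3 receptors, 2 phosphatases of MAP kinases and 1 ligand.

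Of 17 tested PrE TFs 10 were higher (58.8%) and none was lower, against 13.6% and 10.9% of all genes. The median log2 fold change was 0.80, and 6 of the 10 were also called with replicates averaged within sets. *Sox17*, which specifies endoderm, had normalized counts of 1.04, 3.02, 3.52 and 1.64 at 2 h and 11.9, 21.8, 26.5 and 21.7 at 4 h. These groups did not overlap, although the 2 h levels rested on very few reads (log2 fold change 2.72, SE 0.29, adjusted p = 5.95e-08). *Creb3l2*, a TF of the secretory pathway, had 50.9, 69.5, 135 and 152 at 2 h and 268, 334, 648 and 699 at 4 h. Replicates 3 and 4 were higher than replicates 1 and 2 at both times, and *Creb3l2* rose within each set (2.27, adjusted p = 1.98e-05).

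Smaller rises were seen for other TFs of the list, and those of *Foxa2*, *Sox7* and *Foxa1* started from few reads. *Foxa2*, a pioneer factor of endoderm, had 0, 3.02, 2.34 and 0.821 at 2 h and 4.94, 4.85, 9.62 and 7.80 at 4 h (log2 fold change 1.76, adjusted p = 1.70e-04). *Sox7*, a relative of *Sox17*, rose from a mean of 3.12 ± 2.45 to 13.8 ± 5.15 (SD, n = 4; 1.99, adjusted p = 1.10e-04). *Foxa1* rose by 1.90 with overlapping samples, *Elf3* by 0.94 and *Sall4* by 0.45 on the log2 scale. *Gata4*, which works beside GATA6 in PrE, had 16.6, 12.1, 37.5 and 55.0 at 2 h and 26.7, 36.3, 60.9 and 71.1 at 4 h. Its groups overlapped because replicates 3 and 4 at 2 h matched or exceeded replicates 1 and 2 at 4 h. *Gata4* rose by 0.80 (SE 0.30, adjusted p = 0.0626), a call that was lost with set averages (adjusted p = 0.414) and without replicate 1 or 2 at 2 h or replicate 3 or 4 at 4 h (adjusted p between 0.179 and 0.311). *Tfec* and *Lhx1* had no read in any of the 8 samples, and *Hnf4a*, *Foxq1*, *Cited2*, *Eomes* and *Hhex* did not pass the test.

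**Figure D1:**
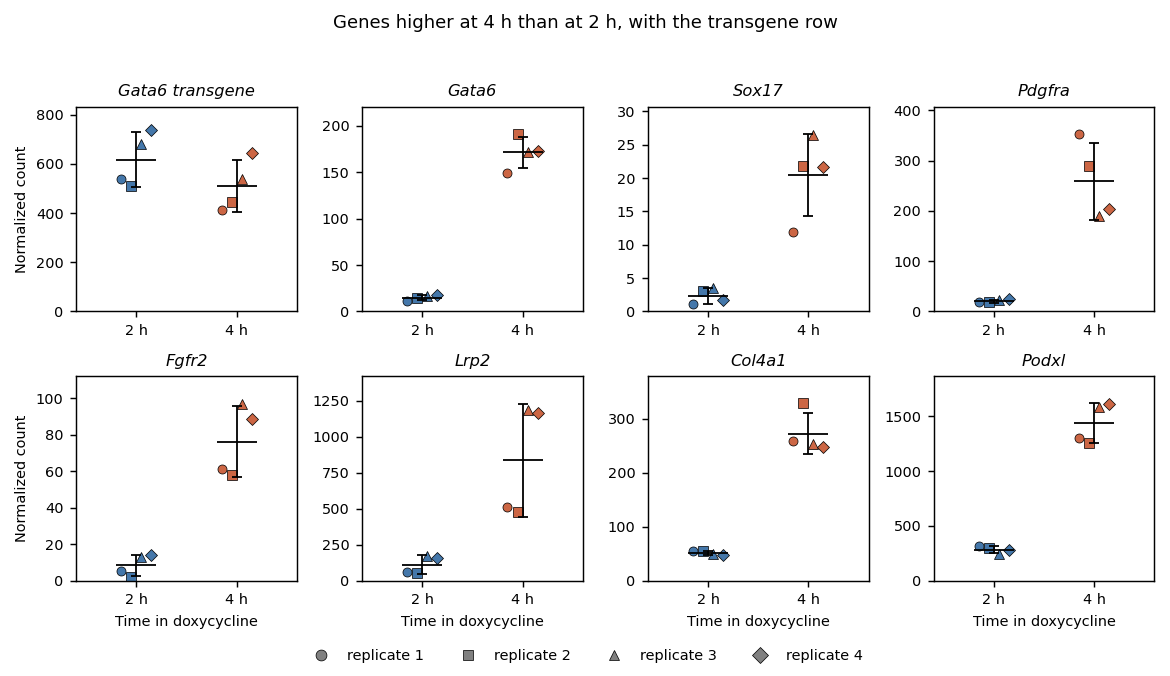
Normalized counts at 2 h and 4 h for the *Gata6* transgene row, endogenous *Gata6*, *Sox17*, *Pdgfra*, *Fgfr2*, *Lrp2*, *Col4a1* and *Podxl*, each panel with its own linear axis from 0. Symbols are replicates 1 to 4 (circle, square, triangle, diamond) and bars the mean ± SD. The transgene row overlaps between the times, whereas every 4 h sample of the other 7 genes lies above every 2 h sample.

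Some receptors for PDGF and FGF rose, and 4 of 7 passed the test as higher, against 13.6% of all genes. *Pdgfra* (chr5:75152292-75198215, GRCm38), the PDGF receptor that marks PrE, had 17.7, 18.1, 22.3 and 23.8 at 2 h and 353, 288, 189 and 205 at 4 h. All 4 h samples were far above the 2 h samples, and replicates 1 and 2 rose further than replicates 3 and 4, with log2 fold changes of 4.08 and 3.04. Over all replicates the mean went from 20.5 ± 3.04 to 259 ± 76.4 (SD, n = 4; 3.56, SE 0.14, adjusted p = 1.11e-17). *Fgfr2*, an FGF receptor used by PrE cells, had 5.19, 2.26, 12.9 and 14.0 at 2 h and 61.3, 58.1, 97.0 and 88.4 at 4 h, again with no overlap (3.23, SE 0.34, adjusted p = 4.76e-08). *Fgfr3*, a related receptor, rose from 9.11 ± 4.83 to 50.4 ± 27.3 (2.35, adjusted p = 9.38e-06), and *Fgfr4* rose by 0.97. No receptor in the FGF and PDGF list was lower, and *Fgfr1*, the main FGF receptor of ES cells, had a log2 fold change of 0.12 that did not pass.

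Ligands of the same pathways went both ways, with 2 of 7 higher and 2 lower. *Fgf3* had means of 9.54 ± 2.43 and 23.3 ± 4.68 (1.22, adjusted p = 3.48e-05), and *Fgf10*, an FGF ligand that acts through FGFR2, rose by 1.07. *Pdgfa*, which encodes the ligand of PDGFRA, had 570.4, 643, 616 and 603 at 2 h and 399, 385, 349 and 367 at 4 h. *Pdgfa* thus fell in every replicate while its receptor gene rose (-0.70, adjusted p = 1.90e-04). *Pdgfb* fell by 1.45 on the log2 scale, from a mean of only 10.2 ± 2.33, and this call was lost with set averages (adjusted p = 0.204). *Fgf4*, the FGF that ES cells secrete, had a log2 fold change of -0.30 that did not pass, and none of the 4 co-receptors passed. Together 6 of 18 tested genes of the list were higher (33.3%) and 2 lower (11.1%), against 13.6% and 10.9% of all genes. The median was 0.39, and with set averages 5 were higher and 1 was lower.

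Of 22 tested members of the endoderm matrix and uptake list 9 rose (40.9%) and none fell, against 13.6% and 10.9% of all genes. The median was 0.28, and 6 of the 9 were also called with set averages. The 9 were 4 of 8 basement membrane genes, 4 of 5 genes of endocytic receptors or adaptors, and 1 of 6 genes that process matrix proteins. *Lrp2*, which encodes the endocytic receptor megalin, had 58.2, 51.3, 175 and 158 at 2 h and 512, 479.7, 1187 and 1168 at 4 h. Replicates 3 and 4 stood above replicates 1 and 2 at both times, yet the lowest 4 h value exceeded the highest 2 h value (2.99, SE 0.46, adjusted p = 2.15e-05). *Dab2*, the adaptor that carries megalin into the cell, rose by 1.07, and *Folr1*, a folate receptor, by 0.75. *Amn*, whose protein anchors the megalin partner cubilin, had 0, 0, 3.52 and 0.821 at 2 h and 2.97, 2.42, 2.41 and 7.80 at 4 h. With so few reads the groups overlapped, and the *Amn* call (1.41, adjusted p = 0.0133) was lost with set averages (adjusted p = 0.213).

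*Col4a1* and *Col4a2*, which encode the chains of collagen IV, lie head to head on chromosome 8 with RefSeq start sites 21 bases apart (GRCm38.p6). *Col4a1* had 55.1, 55.1, 49.2 and 48.4 at 2 h and 258, 329, 253 and 248 at 4 h. *Col4a2* had 15.6, 17.4, 23.4 and 11.5 at 2 h and 97.9, 92.1, 106 and 122 at 4 h. Both genes rose in every replicate, with log2 fold changes of 2.36 (SE 0.19, adjusted p = 1.34e-10) and 2.59 (SE 0.24, adjusted p = 3.90e-09). *Lama1*, the laminin chain of the earliest embryonic basement membranes, had 514, 506, 591 and 566 at 2 h and 1962, 1975, 2136 and 2167 at 4 h, a clean separation (1.92, adjusted p = 2.31e-07). *Lamb1* rose by 0.96 and *P4ha1*, which hydroxylates collagen, by 0.78. *Lamc1*, *Nid1*, *Nid2* and *Hspg2* did not pass the test.

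Several of the largest rises with ample reads, beside *Pdgfra*, *Gata6* and *Fgfr2*, lay outside these lists. *Ptafr*, the receptor for platelet activating factor, had 1.04, 0.755, 3.52 and 8.21 at 2 h and 161, 159.9, 237 and 229.7 at 4 h. It had the largest log2 fold change of any gene called at 4-fold, 5.80 (SE 0.42, adjusted p = 2.49e-11), against a 2 h level of 15 reads over 4 libraries. *Sema3e*, a secreted guidance cue, had 7.27, 11.3, 18.8 and 10.7 at 2 h and 189.8, 179, 219 and 207 at 4 h (4.01, adjusted p = 1.39e-08). *Efna5*, an ephrin ligand, rose by 3.02, *Grm6*, a glutamate receptor, by 3.32, and *Slc26a10*, an anion transporter family member, by 3.13. The enzyme gene *Fut2* rose by 3.07 and the RhoGAP gene *Stard8* by 2.98. Groups without overlap were a condition for naming these 7 genes, and 8 of the genes called higher at 4-fold did overlap.

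Among further genes of known embryonic use, *Podxl*, which encodes the sialomucin podocalyxin of epithelial surfaces, had 316, 297, 240.3 and 279 at 2 h and 1305, 1257, 1585 and 1615 at 4 h. All 4 h samples were above all 2 h samples (2.34, SE 0.12, adjusted p = 1.37e-14). *Runx1*, a TF best known from blood formation, had 46.8, 46.8, 57.4 and 61.6 at 2 h and 196, 208, 269 and 279 at 4 h, also without overlap (2.14, adjusted p = 1.06e-10). *Cyp26a1*, which degrades retinoic acid, rose by 2.19 and *Rhpn2* by 2.22. *Dkk1*, a secreted Wnt inhibitor, had 4.16, 3.77, 4.69 and 3.28 at 2 h and 24.7, 50.9, 12.0 and 13.9 at 4 h. *Dkk1* was higher in every 4 h sample, but replicates 1 and 2 lay above replicates 3 and 4 (2.19, adjusted p = 2.14e-06).

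Some further called genes are named after their values were seen. *Elovl3*, a fatty acid elongase, had 3 reads over the 2 h samples and 224 over the 4 h samples. *Emx2*, a homeobox factor, had no read at 2 h and 54 reads at 4 h, spread over all 4 samples. *Nrg2* (3.59) and *Bmp6* (2.97), both ligands, and *Il22ra1* (2.97), a cytokine receptor gene, rose from low levels. *Meis1*, a homeobox cofactor, had 20.8, 18.1, 12.9 and 16.4 at 2 h and 95.9, 111, 67.4 and 73.7 at 4 h, with no overlap (2.28). *Tnf*, an inflammatory cytokine, had a mean of 19.9 at 4 h against 3.86 at 8 h and at most 5.19 in any 2 h sample (2.78). *H19*, an imprinted long noncoding RNA, rose by 2.54. The antisense transcripts *Igf2os* and *Six3os1* were also called, but whether the authors' counting used strand is not stated, so reads of these rows and of the genes opposite cannot be told apart.

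Promoters of rising genes were read for GATA words, the letters AGATAA or TGATAA on either strand, or either of these with G as the last letter, in RefSeq windows of 250 bases before to 50 bases after each start (GRCm38.p6). Such a word stood in 18.9% of the 13653 promoters that matched tested genes and in 18 of 77 promoters of the genes called higher at 4-fold (23.4%). *Grm6* is shown because its promoter holds a pair of GATA words within 1 short stretch, and *Foxa2* as an endoderm TF with a single one. Capitals mark the words, and each line runs 5′ to 3′ on the strand of its gene. The *Grm6* stretch is chr11:50850542-50850586 (plus strand) and the *Foxa2* stretch chr2:148045632-148045657 (minus strand).
Grm6: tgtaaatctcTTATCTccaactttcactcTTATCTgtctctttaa
Foxa2: gttagccttgAGATAAtattaacttt
*Grm6*, with its pair of words, had 18.7, 22.6, 22.3 and 27.1 at 2 h and 174, 165, 315 and 325 at 4 h (SE 0.38, adjusted p = 1.49e-07). Its replicates 3 and 4 were the higher ones at 4 h. A match is a description of the letters only.

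Of 29 tested immediate early genes 21 were lower at 4 h (72.4%) and none was higher, against 10.9% and 13.6% of all genes. The median log2 fold change was -0.78 against -0.01 for all genes. With replicates averaged within sets 12 of the 21 were also called. All 5 tested zinc finger factors, 6 of 8 AP-1 subunits, 1 of 3 nuclear receptors and 9 of 13 other members fell. *Fosl2*, an AP-1 subunit, had 508, 508, 516 and 529 at 2 h and 55.4, 38.8, 92.2 and 84.1 at 4 h. Its 2 h samples were nearly equal and all lay far above the 4 h samples (-2.99, SE 0.22, adjusted p = 3.62e-11). *Fosb*, another AP-1 subunit, had 57.1, 54.4, 68.0 and 64.0 at 2 h and 0.989, 4.85, 5.61 and 6.07 at 4 h (-3.67, SE 0.62, adjusted p = 6.54e-05). Smaller falls of AP-1 genes were those of *Fosl1* (-1.61), *Fos* (-1.51), *Jun* (-1.34) and *Jund* (-0.52), whereas *Junb* (-0.27) did not pass.

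Zinc finger factors of the EGR family fell with their co-repressor. *Egr3* had 495, 547, 324 and 314 at 2 h and 52.4, 60.6, 61.7 and 76.3 at 4 h, with replicates 1 and 2 the higher ones at 2 h only (-2.69, SE 0.43, adjusted p = 3.64e-05). *Egr1*, the most studied member, had 1837, 1936, 2501 and 2489 at 2 h and 836, 836, 879 and 906 at 4 h. *Egr1* was lower in every 4 h sample (-1.33, SE 0.40, adjusted p = 0.0186), and the call was lost with set averages (adjusted p = 0.316), as was that of *Fos* (adjusted p = 0.119). *Egr2* fell by 1.59. *Nab2*, which encodes a co-repressor that binds EGR proteins, had 1455, 1556, 1337 and 1284 at 2 h and 191, 150.2, 257 and 243 at 4 h (-2.77, SE 0.14, adjusted p = 1.23e-14). *Nab1*, its paralog, fell by 0.78.

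*Arc*, an immediate early gene best known from neurons, had 2182, 2153, 1773 and 1773 at 2 h and 264, 254, 292 and 341 at 4 h, a drop in every replicate (-2.77, SE 0.16, adjusted p = 1.85e-13). *Rrad*, a small GTPase, had 229.6, 232, 265 and 245 at 2 h and 21.7, 26.7, 28.9 and 32.9 at 4 h (-3.11, adjusted p = 3.64e-05). *Myc*, an immediate early gene that also drives growth of ES cells, had 679, 647, 342 and 378 at 2 h and 356, 361, 241 and 317 at 4 h. Its groups overlapped, since replicates 3 and 4 at 2 h were close to replicates 1 and 2 at 4 h, and the log2 fold change of -0.63 did not pass (adjusted p = 0.179), although it did with the replicate number as a block (adjusted p = 0.028). *Atf3*, *Ier3*, *Btg2*, *Nr4a2* and *Nr4a3* did not pass either.

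Other large falls lay outside the lists, which hold only a part of the 35 genes lower at 4-fold. *Sec14l5*, a relative of lipid transfer proteins, had 99.7, 92.9, 136 and 142 at 2 h and 10.9, 12.1, 19.2 and 16.5 at 4 h (-2.93, SE 0.52, adjusted p = 1.39e-04). *Hs3st3b1*, which sulfates heparan chains, had 183, 201, 224 and 279 at 2 h and 27.7, 21.8, 55.3 and 43.3 at 4 h (-2.62, SE 0.23, adjusted p = 8.60e-10). *Tent5c*, a poly(A) polymerase, fell from a mean of 162 ± 17.1 to 29.1 ± 6.96 (SD, n = 4; -2.47, adjusted p = 8.02e-10). The rule that named these 3 genes required groups without overlap, and 4 of the 35 genes lower at 4-fold did overlap. *Dio3*, which inactivates thyroid hormone, had 155, 143, 351 and 359 at 2 h and 28.7, 26.7, 73.0 and 95.3 at 4 h, with replicates 3 and 4 the higher ones at both times. Its call (-2.23, adjusted p = 0.0234) was lost with set averages (adjusted p = 0.322).

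**Figure D2:**
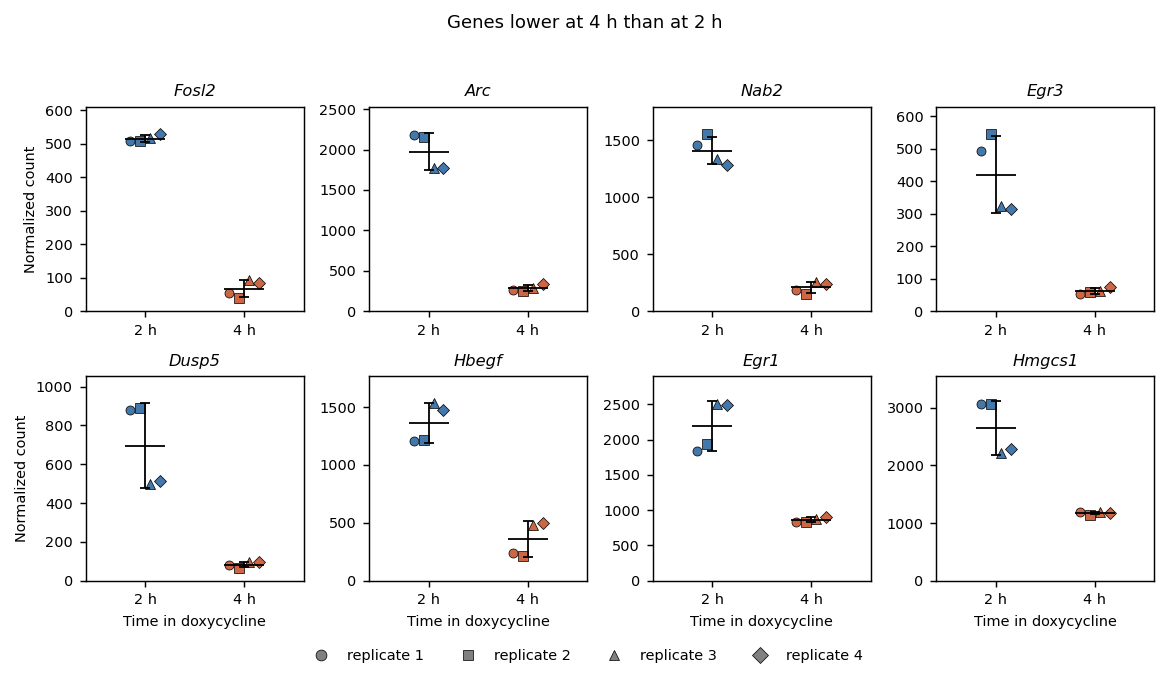
Normalized counts at 2 h and 4 h for *Fosl2*, *Arc*, *Nab2*, *Egr3*, *Dusp5*, *Hbegf*, *Egr1* and *Hmgcs1*, each panel with its own linear axis from 0. Symbols are replicates 1 to 4 (circle, square, triangle, diamond) and bars the mean ± SD. Every 4 h sample lies below every 2 h sample, and at 2 h replicates 1 and 2 stand apart from replicates 3 and 4 for all of these genes but *Fosl2*.

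Genes that ERK induces, many of which restrain it, were lower in part. The list held 5 phosphatases, 7 inhibitors of receptor signalling, 3 ETS factors and 3 other ERK targets. Of these 18 members 6 fell (33.3%, against 10.9% of all genes) and none rose, with a median of -0.29. With set averages 4 of the 6 were also called. *Dusp5*, a nuclear phosphatase of ERK, had 881, 889, 501 and 514 at 2 h and 79.1, 65.4, 94.6 and 94.5 at 4 h. Its replicates 1 and 2 were the higher ones at 2 h, and all 4 h samples were far below (-3.01, SE 0.23, adjusted p = 6.06e-11). *Dusp2*, a related phosphatase, had means of 36.8 ± 16.2 and 7.55 ± 3.40 (SD, n = 4; -2.16, adjusted p = 8.74e-04). *Errfi1*, an inhibitor of the EGF receptor, had 1543, 1558, 2662 and 2709 at 2 h and 612, 603, 991 and 944 at 4 h, with no overlap (-1.41, adjusted p = 1.92e-06). *Dusp1* (-0.93, lost with set averages at adjusted p = 0.154), *Il17rd* (-0.80) and *Phlda1* (-0.64) fell as well.

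Other members of this list did not pass the test. *Dusp6*, the cytoplasmic phosphatase of ERK, had 1979, 1978, 1013 and 978 at 2 h and 991, 1073, 813 and 882 at 4 h, so that the step was wide in replicates 1 and 2 and narrow in replicates 3 and 4 (-0.59, adjusted p = 0.424). *Spry4*, a Sprouty inhibitor, had 1343, 1286, 1111 and 1216 at 2 h and 585, 601, 627 and 645 at 4 h. No *Spry4* samples overlapped, but in the fit of all 32 samples the log2 fold change of -1.01 had an SE of 0.48 and an adjusted p of 0.152, whereas a fit of the 8 samples alone gave an adjusted p of 1.29e-04. *Spry1*, *Spry2*, *Etv4*, *Etv5* and *Ccnd1* had log2 fold changes between -0.14 and 0.22 that did not pass. *Hbegf*, a ligand of the EGF receptor, had 1206, 1219, 1537 and 1475 at 2 h and 237, 211, 483 and 503 at 4 h, lower in every 4 h sample (-2.02, SE 0.22, adjusted p = 5.77e-08).

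The CArG box, the sequence that serum response factor binds, was looked up in the same promoter windows on both strands. It stood in 1.30% of all matched promoters, in 5 of 27 promoters of immediate early genes (18.5%), and in 1 of 23 promoters of the genes called lower at 4-fold (4.35%). Promoters of 1 gene can overlap, and the same *Egr2* box was counted in 3 of them. Counted by gene, 2 of 21 immediate early genes (9.52%) and 1.58% of all matched genes had a box. The boxes are shown for *Dusp5*, *Egr2* and *Zfp36*, with the box in capitals and each line 5′ to 3′ on the strand of its gene. *Dusp5* has a pair of adjoining boxes at chr19:53529053-53529092 (plus strand), *Egr2* has one at chr10:67537787-67537816 (plus strand) and another upstream, and *Zfp36* has one at chr7:28379267-28379296 (minus strand).
Dusp5: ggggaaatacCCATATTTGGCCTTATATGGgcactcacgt
Egr2: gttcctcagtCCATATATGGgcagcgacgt
Zfp36: ccaggccgccCCATAAAAGGagaaagctcc
All 3 genes were lower at 4 h, by 3.01, 1.59 and 0.55 on the log2 scale for *Dusp5*, *Egr2* and *Zfp36*. The AP-1 words TGACTCA and TGAGTCA were in 3.65% of all matched promoters and in 0 of 27 promoters of immediate early genes.

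Targets of SRF and YAP, factors that read the actin skeleton, moved both ways, with a median of -0.03. Of 20 tested, 5 were higher (25%, 4 with set averages) and 4 lower (20%), against 13.6% and 10.9% of all genes. *Srf* itself had 872, 865, 669 and 634 at 2 h and 325, 317, 277 and 296 at 4 h (-1.31, SE 0.12, adjusted p = 3.28e-09). It fell in every replicate, and it was the one lower member also called with set averages. *Cyr61*, a matricellular YAP target, fell by 0.92 (set averages, adjusted p = 0.146) and *Vcl*, which encodes vinculin, by 0.44 (set averages, adjusted p = 0.162). *Actg1*, a cytoplasmic actin, fell by 0.41 with overlapping groups, and lost the call without replicate 3 or 4 at 2 h or replicate 1 or 2 at 4 h (adjusted p between 0.171 and 0.237). *Tpm1*, a tropomyosin, rose by 0.82, *Ajuba* by 0.66, *Lats2*, a kinase that inhibits YAP, by 0.74, and *Tead1*, the DNA-binding partner of YAP, by 0.49 (set averages, adjusted p = 0.286). *Ankrd1*, a YAP target, had at most 1.64 at 2 h and 2.97, 4.85, 13.6 and 10.4 at 4 h (2.35, adjusted p = 1.65e-03). *Ctgf*, *Actb* and *Flna* did not pass.

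Of 23 genes of cholesterol synthesis and uptake 17 fell (73.9%) and none rose, against 10.9% and 13.6% of all genes. The median was -0.50, and 8 of the 17 were also called with set averages. The fall took in 13 of 18 enzymes and 4 of 5 genes of uptake or control. *Hmgcs1*, which makes the precursor of mevalonate, had 3059.8, 3055, 2216 and 2275 at 2 h and 1199, 1144, 1188 and 1168 at 4 h. The 4 h samples were nearly equal, whereas at 2 h replicates 1 and 2 were the higher ones (-1.16, SE 0.17, adjusted p = 7.96e-06). *Fdft1*, squalene synthase, had 1402, 1341, 1313 and 1357 at 2 h and 729.5, 709.9, 864 and 865 at 4 h, with no overlap (-0.78, adjusted p = 1.53e-06). *Cyp51*, a sterol demethylase, had 1444, 1437, 961 and 924 at 2 h and 716, 661, 676 and 660.5 at 4 h (-0.78, adjusted p = 5.30e-04), a call lost with set averages (adjusted p = 0.117).

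*Insig1*, a sterol sensor, fell by 0.63 on the log2 scale and *Srebf2*, the TF that drives the pathway, by 0.53. *Idi1* fell by 0.83 with overlapping groups (set averages, adjusted p = 0.292). *Fdps*, *Sqle*, *Sc5d* and *Hsd17b7* did not pass. The sterol regulatory element, searched as TCACNCCAC on both strands, was in 1.20% of all matched promoters and in 1 of 18 promoters of this list. That promoter belongs to *Hmgcs1*, the enzyme gene with the largest fall, and the element stands in capitals in chr13:119690204-119690232 (plus strand).
Hmgcs1: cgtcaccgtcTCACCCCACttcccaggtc

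**Figure D3:**
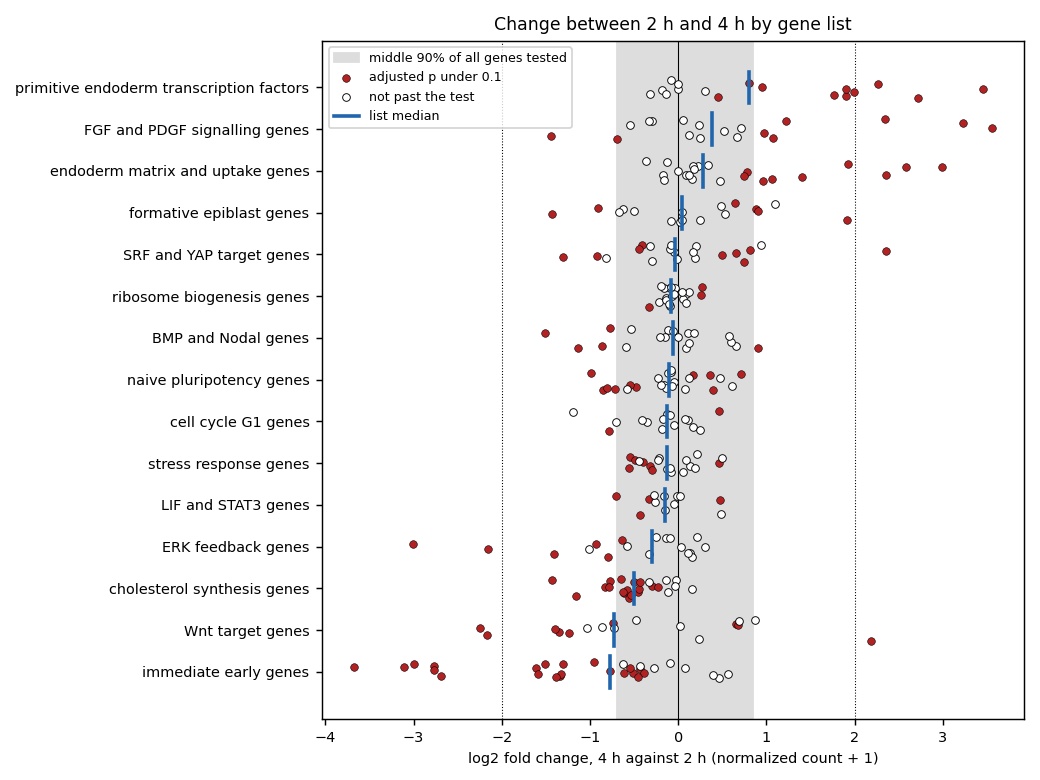
Log2 fold change at 4 h against 2 h of every tested member of 15 gene lists, 1 point per gene, red where the adjusted p is below 0.1 and white otherwise. Blue marks the median of each list, the grey band the middle 90% of all genes tested (-0.69 to 0.84), and dotted lines the 4-fold limits. Immediate early and cholesterol genes lie mostly to the lower side, and PrE TFs to the higher side.

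Of 24 naive pluripotency genes 6 were lower (25%) and 4 higher (16.7%), against 10.9% and 13.6% of all genes, with a median of -0.10. With set averages 3 were lower and 1 was higher. *Esrrb*, an orphan nuclear receptor of naive cells, had 3631, 3587, 4226 and 4219 at 2 h and 1715, 1892, 2061 and 2212 at 4 h, a drop in every replicate (-0.99, SE 0.16, adjusted p = 5.28e-05). *Nanog* had 3164, 3325, 3371 and 3279 at 2 h and 1796, 1757, 1855 and 1873 at 4 h. The *Nanog* samples were tight within each time and did not overlap (-0.85, SE 0.22, adjusted p = 6.89e-03), yet in the fit with set averages the call was lost (adjusted p = 0.236). Replicates 1 and 2 alone gave -0.87 and replicates 3 and 4 alone -0.83. The 0 h samples, which enter both fits, had an SD of 1219. *Sox2*, a partner of OCT4, had 1775, 1772, 1810.2 and 1784 at 2 h and 1064, 1156, 922 and 959 at 4 h (-0.81, adjusted p = 5.60e-03), and it too was lost with set averages (adjusted p = 0.189). *Zfp42* fell by 0.48 and *Morc1* by 0.55. *Nr5a2* fell by 0.71, a call lost without replicate 1 or 2 at 2 h or replicate 1 at 4 h (adjusted p of 0.141, 0.142 and 0.115).

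*Pou5f1*, which encodes OCT4, had 9121, 8465, 7439 and 7030.0 at 2 h and 7439.8, 7559, 6259.7 and 6659 at 4 h. The groups overlapped and the log2 fold change of -0.20 did not pass (adjusted p = 0.191), although it did with the replicate number as a block (adjusted p = 0.0362). *Klf4*, a target of LIF signalling, had 1111, 1138, 1757 and 1727 at 2 h and 1312, 1371, 1315 and 1433 at 4 h. Replicates 1 and 2 of *Klf4* went up while replicates 3 and 4 went down (log2 fold changes of 0.25 and -0.34), and the pooled value of -0.04 did not pass (adjusted p = 0.861). *Tbx3*, a T-box factor of naive cells that also acts in endoderm, rose by 0.71 with overlapping groups (set averages, adjusted p = 0.180). *Dppa2* rose by 0.40 and *Mycn* by 0.36 (set averages, adjusted p = 0.0866 and 0.351). *Fbxo15* rose by 0.17, a call lost without any single one of the 8 samples (adjusted p between 0.101 and 0.198). *Klf2*, *Klf5*, *Tfcp2l1*, *Prdm14* and *Dppa3* did not pass.

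Formative genes come on as naive cells move towards the post-implantation epiblast. Of 17 tested, 4 were higher (23.5%) and 2 lower (11.8%), against 13.6% and 10.9% of all genes. The median was 0.04, and 2 passed in each direction with set averages. *Dnmt3b*, a de novo DNA methyltransferase, had 673, 715, 571 and 553 at 2 h and 1229, 1209, 1098 and 1163 at 4 h, higher in every 4 h sample (0.91, SE 0.11, adjusted p = 5.15e-07). *Cdh2*, which encodes N-cadherin, had 54.0, 70.2, 46.9 and 44.3 at 2 h and 248, 259, 164 and 159 at 4 h (1.91, adjusted p = 4.69e-04). *Dnmt3a* rose by 0.64, a call lost without replicate 2 at 4 h (adjusted p = 0.102), and *Grhl2*, an epithelial TF, by 0.88 (set averages, adjusted p = 0.214). *Foxd3* had 128, 122, 128 and 134 at 2 h and 39.5, 50.9, 44.1 and 53.7 at 4 h, with no overlap (-1.43, adjusted p = 0.0135), and *Zic2* fell by 0.91. *Otx2* and *Pou3f1*, TFs of the formative state, did not pass.

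Wnt targets had 6 of 17 members lower (35.3%) and 3 higher (17.6%), against 10.9% and 13.6% of all genes. The median was -0.73, and with set averages 3 were lower and 1 was higher. The lower ones were mostly TFs, 5 of 8, among them *Nkx1-2* (-2.24), *Cdx1* (-1.40), *Sp5* (-1.24) and *Tcf7* (-0.74). *T*, the mesoderm factor brachyury, had 209, 162, 16.4 and 14.0 at 2 h and 28.7, 46.0, 4.81 and 1.73 at 4 h. Replicates 1 and 2 of *T* were far above replicates 3 and 4 at both times, the groups overlapped, and the call (-2.16, adjusted p = 0.0772) was lost with set averages (adjusted p = 0.444) and without replicate 1 or 2 at 2 h or replicate 3 or 4 at 4 h (adjusted p between 0.201 and 0.291). *Notum*, a secreted Wnt inhibitor, fell by 1.35. Besides *Dkk1*, *Axin2*, a feedback inhibitor, rose by 0.65 (set averages, adjusted p = 0.235). *Fzd10* rose by 0.67, a call lost without replicate 1 or 2 at 2 h or replicate 2, 3 or 4 at 4 h (adjusted p between 0.106 and 0.256).

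In the BMP and Nodal list 4 of 19 were lower (21.1%) and 1 was higher (5.26%), against 10.9% and 13.6% of all genes. The median was -0.06, and with set averages 1 was lower. *Smad7*, an inhibitory SMAD, had means of 969 ± 213 and 455 ± 166 (SD, n = 4; -1.14, adjusted p = 3.83e-04), with every 4 h sample below every 2 h sample, and it was lost with set averages (adjusted p = 0.107). *Skil* fell by 0.77 and *Id3*, a BMP target, by 0.86 (set averages, adjusted p = 0.210). *Bmp7* fell by 1.52, a call lost without replicate 2 at 4 h (adjusted p = 0.196). *Smad6* rose by 0.90 with overlapping groups, a call lost without replicate 1 or 2 at 2 h or replicate 1, 3 or 4 at 4 h (adjusted p between 0.120 and 0.367). *Nodal*, *Lefty1*, *Lefty2* and *Id1* did not pass.

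LIF and STAT3 genes had 3 of 12 lower (25%) and 1 higher (8.33%), against 10.9% and 13.6% of all genes. The median was -0.16, and with set averages 1 was lower. *Stat3*, the TF downstream of LIF, had 1942, 1964, 1755 and 1921 at 2 h and 1317, 1226, 1051 and 1084 at 4 h, lower in every 4 h sample (-0.70, SE 0.08, adjusted p = 2.80e-07). *Jak1* fell by 0.34, lost without replicate 3 at 2 h or replicate 1 at 4 h (adjusted p of 0.102 and 0.107), and *Socs2* by 0.43, lost without replicate 1 or 2 at 2 h or replicate 3 at 4 h (adjusted p between 0.107 and 0.137). *Il6st*, the receptor subunit gp130, rose by 0.47, lost without replicate 1 or 2 at 2 h (adjusted p of 0.126 and 0.125). *Socs3* and *Lifr* did not pass.

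Changes of the named genes in the G1, ribosome and stress lists were small. Of all genes tested 13.6% were higher and 10.9% lower, against 6.67% each way for G1 genes. The shares were 10% higher and 5% lower for ribosome genes, and 5.26% higher and 31.6% lower for stress genes. Among 15 genes of the G1 phase the CDK inhibitor *Cdkn1a* fell by 0.79 (set averages, adjusted p = 0.302), *Cdkn2d* rose by 0.46 and no cyclin or kinase passed. Among 20 ribosome biogenesis genes *Nop56* rose by 0.26 and *Polr1b* by 0.27 (set averages, adjusted p = 0.282 and 0.278), and *Nop58* fell by 0.33, lost without replicate 1 or 2 at 2 h or replicate 3 or 4 at 4 h (adjusted p between 0.119 and 0.138). Of 19 stress genes 6 fell, among them the chaperones *Hspa8* and *Hspa5* (-0.55 each, set averages adjusted p = 0.115 and 0.150) and the TF *Xbp1* (-0.49), while *Herpud1* rose by 0.46. The *Herpud1* call was lost without replicate 1 or 2 at 2 h or replicate 3 or 4 at 4 h (adjusted p between 0.175 and 0.283), and none of the 7 genes of the integrated stress response passed. *Tdh*, the threonine dehydrogenase that mouse ES cells depend on, had 4654, 4533, 4511 and 4342 at 2 h and 2429, 2464, 2104 and 2292 at 4 h. It fell in every replicate (-0.96, SE 0.09, adjusted p = 1.89e-09).

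Longer lists of genes that mark PrE and Epi cells of the blastocyst, supplied with the study and derived from embryos and not from these samples, put the changes on a wider base. Of 579 tested PrE genes 132 were higher (22.8%) and 74 lower (12.8%), against 13.6% and 10.9% of all genes, with a median of 0.02. The 14 PrE genes that were higher at 4-fold were *Pdgfra*, *Gata6*, *Fgfr2*, *Lrp2*, *Sox17*, *Col4a2*, *Col4a1*, *Fgfr3*, *Podxl*, *Creb3l2*, *Rhpn2*, *Dkk1*, *Cyp26a1* and *Runx1*, and none was lower at 4-fold. The largest falls in the PrE list were those of *Tnfrsf12a* (-1.54), *Slc26a2* (-1.21) and *Ankrd12* (-1.16). Of 217 tested Epi genes 23 were higher (10.6%) and 40 lower (18.4%), with a median of -0.05 and none past 4-fold. In the fit that blocks on replicate number 39 Epi genes were higher and 51 lower, against 2556 and 2222 of all genes. With set averages 58 of the 579 PrE genes were higher and 11 lower, and 2 of the 217 Epi genes were higher and 10 lower. Of all 15227 genes tested, 523 were higher (3.43%) and 285 lower (1.87%) in that fit. *Foxd3* (-1.43), *Tdh* (-0.96) and *Pdpn* (-0.90, set averages adjusted p = 0.358) had the largest falls of the Epi genes that passed the test. Among the Epi genes that passed, *Zfp462*, a zinc finger gene, had the largest rise (1.06), followed by *Grhl2*, *Fam169a* (0.68, set averages adjusted p = 0.409) and *Tet1* (0.63).

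Markers of other cell types were summed in each sample. The 8 trophoblast markers summed to 177 to 334 at 2 h and 174 to 281 at 4 h, with *Gata2* lower (-1.79, set averages adjusted p = 0.297), *Hand1* lower (-1.51) and *Ascl2* higher (1.14). Leaving out replicate 1 at 4 h ended the call of *Hand1* (adjusted p = 0.138), and leaving out replicate 1 or 4 at either time ended that of *Ascl2* (adjusted p between 0.107 and 0.167). The 6 mesoderm markers, *T* among them, summed to 31.7 to 232 at 2 h and 16.5 to 60.6 at 4 h, and the 6 neural markers, of which *Tubb3* fell by 0.96 (set averages, adjusted p = 0.294), to 365 to 584 and 335 to 416. Fibroblast markers, which feeder cells would carry, summed to 30.1 to 51.7 and 21.7 to 86.7, where *Col3a1* and *Dcn* had no read in any of the 8 samples. Other fibroblast markers did have reads, up to 21 in a sample for *Col1a1*, 4 for *Col1a2*, 2 for *Postn* and 1 for *Lum*. Markers of 2-cell-like cells summed to 3.77 to 124 and 0 to 120, with no member past the test.

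The time points on either side place these changes, in medium that differed only at 0 h. At 0, 2, 4 and 8 h *Dusp5* had means of 22.1, 696, 83.4 and 50.3, *Fosl2* of 18.9, 515, 67.6 and 32.1, *Arc* of 154, 1970.1, 288 and 126, and *Egr3* of 0.202, 419.8, 62.7 and 19.6. Among these time points all of them were highest at 2 h. *Pdgfra* had 6.95, 20.5, 259 and 2528, and *Col4a1* 46.0, 52.0, 272 and 1749, at 0, 2, 4 and 8 h. The step from 4 to 8 h is the longer interval and shares the 4 h samples, and a test of its change minus the change from 2 to 4 h found 595 genes with a larger value (3.91%) and 619 with a smaller one (4.07%). Endogenous *Gata6* rose by less in the second step (1.01, difference -2.44, adjusted p = 5.56e-07). *Gata4* (difference 2.04, adjusted p = 0.0190) and *Foxa2* (2.25, adjusted p = 0.0141) rose by more in the second step, to means of 337 and 123 at 8 h. *Hmgcs1* (difference 1.81, adjusted p = 2.13e-04) and *Fdft1* (1.53, adjusted p = 1.25e-06) fell in the first step and stood higher again at 8 h, at 1871 and 1330.1. For *Esrrb* the difference between steps was -0.10 and did not pass, and it went from 3916 at 2 h to 1970.0 at 4 h and 934 at 8 h.

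**Figure D4:**
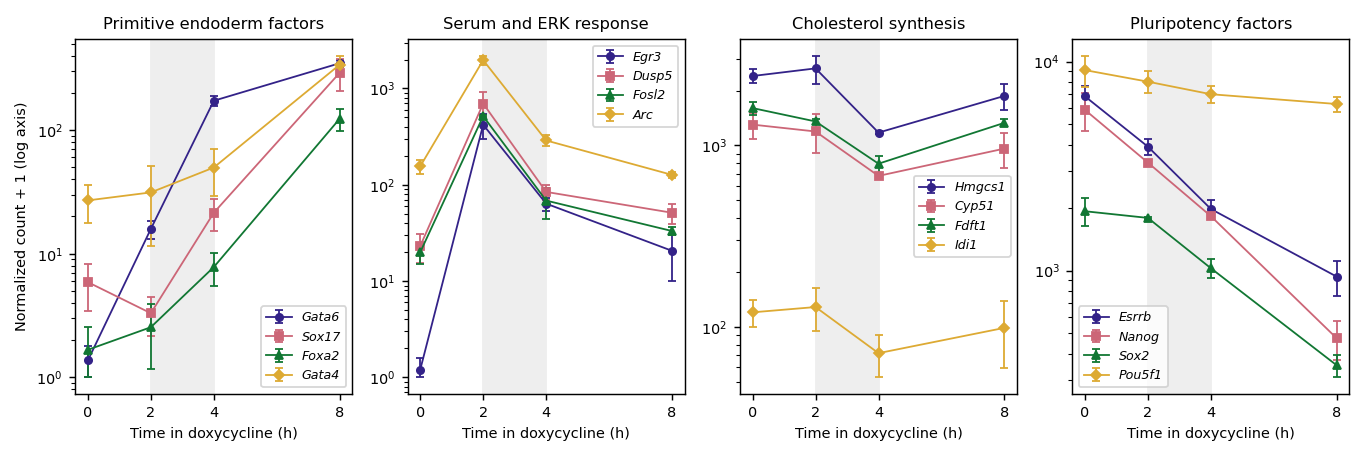
Mean ± SD (n = 4) of normalized count + 1 on a log axis at 0, 2, 4 and 8 h for 16 genes in 4 panels, with the interval from 2 to 4 h in grey. PrE TFs climb from 2 h on, *Egr3*, *Dusp5*, *Fosl2* and *Arc* peak at 2 h, *Hmgcs1*, *Cyp51*, *Fdft1* and *Idi1* dip at 4 h, and *Esrrb* and *Nanog* decline at each step.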

How the data were processed

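RNA-seq libraries of polyadenylated RNA were sequenced as single-end reads. Per the study's methods and the labels, the authors checked reads with FastQC 0.11.8, used cutadapt 2.7 for trimming and HISAT2 2.1.0 for alignment to GRCm38.p6, and counted them per gene with featureCounts (Subread 1.6.4) on a GENCODE annotation. The deposited values are log2 values that the authors made from the counts with size factors and a variance stabilizing transformation. This was undone here: all 54233 rows of the 32 samples shared 1 transformation, whose inverse gave normalized counts, and 100.0% of the values, multiplied by a size factor per sample, were whole reads within 1e-06. Of 29140 rows deposited without a symbol, 29046 were named from an ID table.

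The main test was limma 3.58.1 (R 4.3.3, lmFit and eBayes with trend, two-sided) on log2(normalized count + 1) of all 32 samples, for genes that reached a normalized count of 10 in 4 or more samples, with Benjamini-Hochberg adjustment over 15227 genes. A gene passed at an adjusted p below 0.1 and was called 4-fold if its log2 fold change was also 2 or more in size. Shares were compared with exact permutation tests in Python 3.11.15 with numpy 2.4.6, and other steps used scipy 1.17.1, pandas 2.3.3 and matplotlib 3.10.9. The method was tested on simulated data without differences between sets of replicates, so that test cannot show how calls hold where such sets differ. Groups and replicate numbers came from the labels. Deviations of same-numbered 2 h and 4 h samples correlated at 0.373 to 0.475, over 0.1 in every pair, but those that shared only the set did so at 0.340 to 0.492, so the numbers pair sets of replicates at least.

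The genes named include the 12 largest rises and all 11 falls called at 4-fold with a deposited symbol, no overlap and a higher-group mean from 100 up. The others are the called members of each list with the largest changes, all members of small counts, and 16 genes and the transgene row fixed by name. Some genes that this rule names are not reported here. The comparison, the lists and the tests were chosen with earlier results of these data known. Promoters came from RefSeq (GRCm38.p6), for 10657 of 15214 tested genes with a symbol. Alternatives changed the pseudocount, filter, library scaling, samples, blocks and test, and left out each of the 8 samples in turn. Read counting errors are smallest for the deepest samples, and depth limits genes with few reads.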

Additional observations from a re-analysis of the deposited data

Results flagged for a closer look

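Among 234 groups of 4 samples checked for a sample far from the other 3, 3 stood out, where chance alone gives about 1 in 20. At 4 h, *Col4a1* had a normalized count of 329 in replicate 2 against 248 to 258 in the other samples. *Amn* had 7.80 in replicate 4 at 4 h against 2.41 to 2.97, on few reads. *Lats2* had 53.0 in replicate 1 at 2 h against 45.7 to 46.8.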

How the results depend on the processing

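Against 85 higher and 35 lower genes, a pseudocount of 5 gave 35 and 14, a mean of at least 50 gave 27 and 13 with fewer genes tested, and the deposited values without inversion gave 37 and 14. Limma-voom on recovered reads gave 137 higher genes, and 147 with total reads as library size (chosen after seeing the data). A fold cutoff of 2 gave 459 and 276, replicates 1 and 2 alone gave 99 lower genes, and leaving out 1 sample gave 79 to 104 and 29 to 48. At any size, 2064 and 1657 genes became 523 and 285 with replicates averaged within sets, where only 2 values per time point enter, and 1713 to 2017 and 1332 to 1493 without 1 sample. Over the curated lists, 48 higher and 82 lower genes became 26 and 37 with set averages and 41 to 48 and 75 to 87 without 1 sample.

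With the replicate number as a block, 2556 genes were higher and 2222 lower, the curated lists held 56 and 98, and all 110 named genes that passed still did. Besides *Myc*, *Pou5f1* and the Epi list, the block moved counts by over 1.5 times only in lists with at most 3 genes under it (ES markers 0 to 3 higher, LIF 1 to 2 higher, G1 and ribosome 1 to 3 lower, matrix 0 to 1 lower, mesoderm 1 to 2 lower). For the endogenous share of *Gata6* rows the pairing by replicate number gave 23.1 points (sign-flip p = 0.125, the smallest possible), and replicates 1 and 2 or 3 and 4 alone gave 25.9 and 20.4 (exact p = 0.333, the smallest possible), and 21.6 to 24.6 without 1 sample. *Klf4*, which did not pass, changed sign with replicates 1 and 2 alone (0.25), with total reads as library size (0.019) and without some samples (from -0.16 to 0.065 without 1 sample), and the cause was not tested. Set averages ended the call of 44 of the 110 named genes, and leaving out 1 sample that of 3 to 11. Depth limits the 22 higher and 3 lower 4-fold genes that had at most 3 reads in every sample of the lower group.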
